A study of Homo sapiens with 3 samples.

Results

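Cadherins and protocadherins were described in H82R cells from 3 libraries of total RNA, called replicates 1, 2 and 3. The members were all rows of the read count table whose symbol is CDH or PCDH followed by a number and no further letter, or names a gene of the alpha, beta or gamma protocadherin cluster. Symbols ending in Y were left out, and PCDH11X is outside the rule because of its last letter. This gave 88 of 27574 genes. The cells derive from H82, a long-established line of human small cell lung cancer, and every library carries the same label of treatment with etoposide plus cisplatin, a topoisomerase poison and a DNA crosslinking agent. The labels hold no untreated, parental or other group, so levels and their spread between libraries can be given, but no effect of the treatment. The labels call the treated material a tumour, while their growth protocol describes cultured cells. They do not say whether the replicates are separate cultures, and p-values therefore cover only differences among these 3 samples, which could be technical.

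Cadherins are calcium-dependent adhesion proteins of the cell surface. Classical cadherins bind their like on a neighbouring cell through the outermost extracellular domain, and catenins tie their tails to actin. Type I members, among them E-cadherin and N-cadherin, hold epithelia and neural tissue together, and type II members mark groups of neurons and mesenchymal cells. Protocadherins are the largest cadherin group and are most used in the nervous system. In the alpha and gamma clusters each gene has its own promoter and its own large first exon, which is spliced to short constant exons shared by the whole cluster, whereas beta genes carry no constant exons. Neurons choose among these promoters, and CTCF and cohesin bind a conserved promoter element that holds the letters CGCT. The last genes of the alpha and gamma clusters, called C-type, are used more uniformly.

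The element can be read in the reference promoters. A promoter was listed for 68 of the 88 members in the RefSeq table for GRCh38.p14, and for 47 of the 53 clustered ones. Only the 250 bases before each gene start were searched, on both strands, with 1 word per cluster picked after the sequences were seen. The words overlap, since each contains CGCT. The word GTCGCT stood before 11 of 13 alpha genes, against 7.54% of the 27305 genes in the table. The same word also stood before 6 of 20 gamma, 2 of 14 beta and 1 of 21 other members. Of the alpha genes PCDHA9 and PCDHAC2 were without it, and PCDHAC2 was the clustered gene with the highest mean level. GGTGGCGCT stood before 12 of 14 beta genes, against 0.516% of genes. GNCGCTG, where N is any base, stood before 18 of 20 gamma genes, but also before 11 of 14 beta, 6 of 13 alpha and 7 of 21 other members, against 23.2% of genes. Counted from the gene start, the CGCT began at a median of -55 bases in the alpha, -61.5 in the beta and -60 in the gamma cluster. The windows below are 28 bases long, on the plus strand of chromosome 5, with CGCT in capitals. They belong to the 2 genes of each cluster with the highest and the 2 with the lowest mean level among those with the word, and are shown because genes with the same word stood far apart in level. The low pairs were chosen by means that rest on at most 11 counts in a library, so the counts do not resolve their order among the other low genes, nor that of PCDHB5 and PCDHB3. The high alpha and gamma pairs depend on the length used. Per kb of exon in no other gene, PCDHA2 stood above PCDHAC1, and PCDHGB2, PCDHGA9 and PCDHGC4 stood above PCDHGA6. Per kb of all exon bases PCDHGA6 was also below PCDHGA7, PCDHGA9, PCDHGB2 and PCDHGC4 in replicate 1, and below PCDHGB2 in replicate 2.
PCDHA11: gttttaggcgcaaggtgtCGCTctttac
PCDHAC1: aagcctagaaggtgtggtCGCTcacgtt
PCDHA1: acattggccacatgatgtCGCTgtacac
PCDHA8: tttgaagccacatgatgtCGCTgtctac
PCDHB5: aattaggacgcctggtggCGCTgcaggc
PCDHB3: caagcgaacgcatggtggCGCTgttgac
PCDHB9: ttggaagccacaaggtggCGCTgcagac
PCDHB7: ccacaaaacgcaaggtggCGCTgctggc
PCDHGC3: ggctgggactctgtgtgcCGCTgtcggc
PCDHGA6: agttaggactctaagcgtCGCTgttgac
PCDHGA1: ggttaggactgtgggcgcCGCTgttcac
PCDHGA3: ggttaggcctcttagtgtCGCTgttgac
The alpha windows lie at chr5:140868881-140868908 for PCDHA11, chr5:140926218-140926245 for PCDHAC1, chr5:140786084-140786111 for PCDHA1 and chr5:140841128-140841155 for PCDHA8. The beta windows lie at chr5:141135177-141135204 for PCDHB5, chr5:141100391-141100418 for PCDHB3, chr5:141187072-141187099 for PCDHB9 and chr5:141172564-141172591 for PCDHB7. The gamma windows lie at chr5:141475878-141475905 for PCDHGC3, chr5:141373833-141373860 for PCDHGA6, chr5:141330401-141330428 for PCDHGA1 and chr5:141343765-141343792 for PCDHGA3. A match describes these letters and is not evidence of binding in these cells. PCDHA11 and PCDHA8, the highest and the lowest alpha gene with the word by mean level, stood at 0.613 ± 0.0468 and 0.0127 ± 0.00807 CPM per kb of exon (counts per length, defined next, with SD, n = 3). They were chosen by level, so their gap says nothing about the word, and PCDHA8 had 3, 2 and 1 counts.

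Replicates 1, 2 and 3 held 25013265, 42610181 and 23868201 counts, of which the members took 0.0449%, 0.0316% and 0.0430%. Counts were scaled to CPM, counts relative to the effective size of the library, and levels of different genes were compared per kb of exon. Where a gene has 0 counts, its level may still reach 0.121 CPM in replicate 1, 0.0702 in replicate 2 and 0.125 in replicate 3 (3 counts). Detected genes are those with 10 or more counts in each of the 3 libraries. All 9 neuroendocrine markers were detected, among them UCHL1 at 143 ± 3.42, NEUROD1 at 112 ± 12 and ENO2 at 54.4 ± 8.60 CPM per kb (SD, n = 3), and INSM1 was lowest at 3.30 ± 0.292. Of the markers of other cell types, 2 of 6 fibroblast, 3 of 5 endothelial and 3 of 5 leukocyte genes were detected. DCN, a defining fibroblast gene, had 0, 1 and 0 counts and PTPRC, the common leukocyte antigen, 6, 10 and 7. Other genes of these lists were higher. The detected fibroblast genes were PDGFRB with 110, 146 and 65 counts and COL1A1 with 25, 27 and 10. The detected endothelial genes were EMCN, PECAM1 and VWF, and the median of the 5 leukocyte genes was 1.55 CPM per kb. The highest of the other markers was CD68 at 10.3 ± 1.69 CPM per kb, a gene with 81.7% of its exon bases in common with another annotated gene.

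A set of 4 cadherins carried most of the family's level, and the rest stood far below the typical gene. Of the 88 members 37 were detected, that is 42.0%, against 53% of all genes in the table and 69.8% of protein-coding genes with a length. The counts of detected genes per group given below are to be read against the same shares, and some groups lie near them. Every member had at least 1 count in some library, against 79.9% of all genes. PCDH11X, which the rule leaves out, had 0, 0 and 0 counts. CDH2, CDH22, CDH7 and CDH24 stood above 5 CPM per kb and together held 73.4 ± 2.06% of the summed member level (SD, n = 3). PCDHAC2 followed at 1.70 CPM per kb, 3.63 times below CDH24. Another 27 members lay from 0.1 to under 1 CPM per kb and 55 lay under 0.1.

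Each detected gene was set against the median detected gene of its library, at 5.57, 5.49 and 5.61 CPM per kb in replicates 1, 2 and 3, with a two-sided one-sample limma-trend test adjusted over 13527 genes. Of the detected members 2 lay above the median gene, against 45.3% of all genes tested, and 33 lay below, against 45% of them. The 2 members above were CDH2 and CDH22, and CDH7 and CDH24 were not distinguished. The median log2 difference was -4.05 over the 37 detected members and 0.00 over all genes tested. The 51 members that were not detected are not part of that median.

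**Figure D1:**
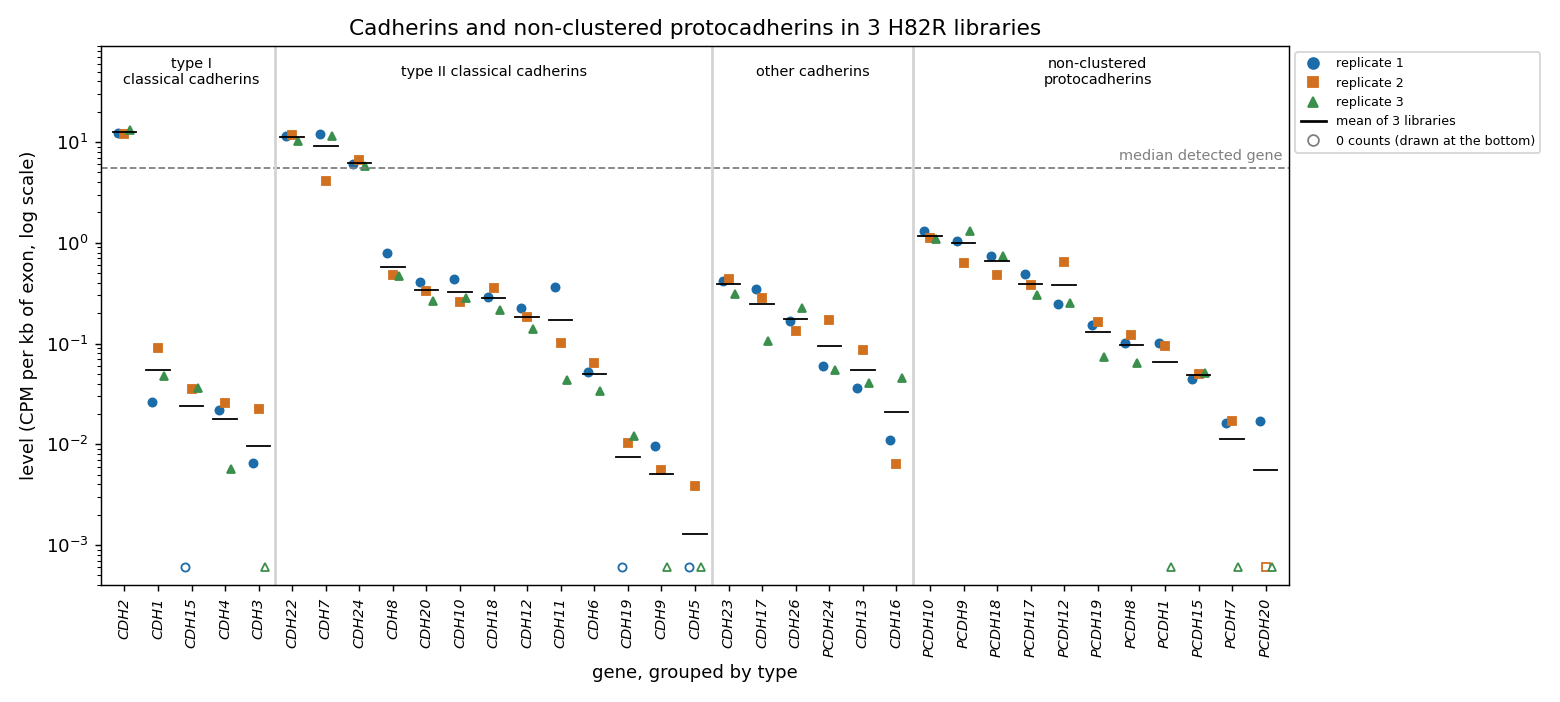
Level in CPM per kb of exon (log axis) of the 35 members outside the 3 clusters, with 1 point for each of the 3 H82R libraries, a bar for the mean and open points at the bottom for 0 counts. CDH2, CDH22, CDH7 and CDH24 stand near or above the dashed line of the median detected gene, and every other member stands below it in all 3 libraries.

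Type I classical cadherins were represented by the neural member alone. CDH2, which encodes N-cadherin, had 1501, 2553 and 1561 counts in replicates 1, 2 and 3, or 12.2, 12.1 and 13.2 CPM per kb. The 3 libraries lay close together and CDH2 had the highest measured level per kb of the members in each. The next member came close to it in replicates 1 and 2, with CDH7 at 0.983 times its level in replicate 1 and CDH22 at 0.963 times in replicate 2. CDH2 stood at 12.5 ± 0.594 CPM per kb (SD, n = 3), above the median gene by 1.17 ± 0.07 (SE) on the log2 scale (limma, adjusted p = 8.46e-07). It made up 99.2 ± 0.513% of the summed type I level. CDH2 lies on chromosome 18 from 27950966 to 28177446 on the minus strand (GRCh38).

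The other type I genes were near the counting floor. CDH1, the epithelial E-cadherin gene, had 4, 24 and 7 counts, which is 0.0548 ± 0.0331 CPM per kb. CDH3, the P-cadherin gene of basal epithelia, had 1, 6 and 0 counts. CDH15, the muscle cadherin gene, and CDH4, the retinal cadherin gene, stood at 0.0238 and 0.0177 CPM per kb and were not detected either. CDH2 counts were 375 times those of CDH1 in replicate 1 (95% exact binomial interval 146 to 1379), 106 times in replicate 2 (71.3 to 166) and 223 times in replicate 3 (108 to 556). Per kb of exon the CDH2 to CDH1 ratio was 468, 133 and 278. CDH1 lies on chromosome 16 from 68737225 to 68835548, and 5.62% of its exon bases lie opposite exons of an antisense gene, whose reads cannot be told apart from its own, since no source used here states whether counting used strand.

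Type II classical cadherins formed the largest group by level, with 53.4 ± 2.91% of the summed member level and 10 of 13 genes detected. Of these 1 lay above the median gene, 7 lay below and 2 were not distinguished. CDH22, a cadherin known from brain, had 1397, 2448 and 1215 counts, or 11.4, 11.6 and 10.3 CPM per kb. It stood at 11.1 ± 0.718 CPM per kb, above the median gene by 1.0 ± 0.08 on the log2 scale (limma, adjusted p = 3.89e-06). CDH22 was below CDH2 in every library, at 0.935, 0.963 and 0.782 times its level per kb. CDH24, a type II cadherin known to bind catenins, had 570, 1064 and 519 counts and stood at 6.18 ± 0.435 CPM per kb, a log2 difference of 0.16 ± 0.09 (SE) from the median gene (limma, adjusted p = 0.134). Its ratio to CDH22 per kb was 0.537, 0.572 and 0.562 and so varied little between libraries.

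CDH7, a cadherin of migrating neural crest cells and motor neurons in chick, differed most in absolute level between libraries. It had 4333, 2571 and 4007 counts, or 174, 60.2 and 167 CPM. Replicate 2 was far below the other libraries, although it was the deepest. Several genes of the other lists were also lowest in it, among them NIPBL at 273, 124 and 264 CPM, SMC3 at 345, 192 and 329, STAG2 at 301, 181 and 324, SMCHD1 at 148, 90.7 and 155 and ZEB1 at 70.7, 32.2 and 62.8. Others were highest in it, among them the cohesin genes RAD21 at 663, 792 and 734 CPM and SMC1A at 548, 579 and 553. MAU2, at 56.4, 77.9 and 74.8 CPM, and SETDB1, at 68.7, 71.5 and 67.4, were also highest in replicate 2. All these genes were picked after their values were seen. What the genes lowest in replicate 2 share with CDH7 was not tested. By CPM CDH7 was the highest of all members, at 134 ± 64.0, but its exons span 14532 bases and per kb it came after CDH2 and CDH22, at 9.22 ± 4.40. CDH7 per kb was 0.983, 0.343 and 0.874 times CDH2 in replicates 1, 2 and 3, so the order of CDH7, CDH22 and CDH24 depended on the library. Among all members CDH7 had rank 2 in replicates 1 and 3 and rank 4 in replicate 2. With all libraries CDH7 was not distinguished from the median gene (log2 difference 0.58 ± 0.26 SE, limma, adjusted p = 0.0662), and without replicate 2 it lay above it by 1.08 (adjusted p = 1.84e-08). CDH7 lies on chromosome 18 from 65750252 to 65890341.

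The remaining type II genes were low. CDH8, which marks sets of brain neurons, had 267, 274 and 152 counts (0.579 ± 0.187 CPM per kb), and CDH20, also on chromosome 18, had 0.336 ± 0.0736 CPM per kb. CDH10, CDH18, CDH12 and CDH6, which lie on chromosome 5, stood at 0.327 ± 0.0990, 0.286 ± 0.0686, 0.183 ± 0.0417 and 0.050 ± 0.0154 CPM per kb. CDH11, the osteoblast cadherin of mesenchymal cells, had 121, 58 and 14 counts, or 0.364, 0.101 and 0.0437 CPM per kb. Replicate 1 stood far above replicate 3, with replicate 2 between them, and without replicate 1 its mean was 0.0728 in place of 0.170 CPM per kb. The 6 fibroblast markers summed to 5.64, 4.31 and 3.30 CPM in replicates 1, 2 and 3, the same order as CDH11, most of it from PDGFRB with 110, 146 and 65 counts. Their part in the CDH11 values was not tested. CDH5, the endothelial VE-cadherin gene, had 0, 1 and 0 counts, and CDH19 and CDH9 had at most 3 counts in any library.

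Cadherins of other structure were low throughout, with 4 of 6 genes detected, all below the median gene. CDH23, which forms the tip links of hair cells, had 192, 351 and 138 counts (0.389 ± 0.0700 CPM per kb), and 18.9% of its exon bases lie opposite an antisense gene. CDH17, the liver and intestine cadherin gene, had 34, 47 and 10 counts (0.247 ± 0.126) and CDH26 had 24, 33 and 31 (0.176 ± 0.0458). CDH13, which encodes the membrane-anchored T-cadherin without a cytoplasmic tail, stood at 0.0543 ± 0.0274 CPM per kb. PCDH24, an older name of the brush border gene CDHR2, had 8, 39 and 7 counts and CDH16, the kidney cadherin gene, 1, 1 and 4, so neither was detected.

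By chromosome, the 4 members outside the clusters on chromosome 18 (CDH2, CDH7, CDH19 and CDH20) summed to 22.0 ± 4.75 CPM per kb, and the 3 on chromosome 20 (CDH22, CDH4 and CDH26) to 11.3 ± 0.684. The 8 members on chromosome 16, which include CDH1, CDH3, CDH5, CDH8 and CDH11, summed to 0.914 ± 0.289 CPM per kb. Members of 1 chromosome differed widely, since CDH19 had 0, 3 and 2 counts on the chromosome that carries CDH2 and CDH7.

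Among the 11 non-clustered protocadherins 7 were detected, all below the median gene. PCDH10, a protocadherin of brain that binds the WAVE complex, had 329, 486 and 263 counts, or 1.30, 1.12 and 1.08 CPM per kb, and its libraries were not distinguished beyond counting error (chi-square homogeneity test, adjusted p = 0.0570). PCDH9 had 795, 830 and 968 counts, or 1.03, 0.628 and 1.31 CPM per kb, lowest in replicate 2. Their order therefore turned, with PCDH10 at 1.26, 1.78 and 0.827 times PCDH9 per kb. PCDH18 had 124, 138 and 118 counts (0.655 ± 0.149 CPM per kb). PCDH17 stood at 0.391 ± 0.0919, PCDH12 at 0.381 ± 0.228, PCDH19, the X-linked epilepsy gene, at 0.130 ± 0.0503 and PCDH15, the partner of CDH23 in hair cell tip links, at 0.0486 ± 0.00373 CPM per kb. PCDH12, known from endothelial cells, had 42, 188 and 41 counts and was high in replicate 2, without which its mean was 0.249 CPM per kb. The 5 endothelial markers, of which 3 were detected, summed to 2.50, 2.55 and 2.71 CPM, with PECAM1 at 10, 47 and 27 counts and EMCN at 33, 40 and 20. Their part in the PCDH12 values was not tested. PCDH1, known from airway epithelium, had 15, 24 and 0 counts, and PCDH8, PCDH7 and PCDH20 were not detected. PCDH20 had 2, 0 and 0 counts, but 95.8% of its exon bases also belong to another gene of the same strand. How such reads were counted is not known, so these counts cannot show that PCDH20 is silent.

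The 53 clustered genes lie side by side on chromosome 5, and only 15 of them were detected, against 22 of the 35 members elsewhere. Of all genes 53% were detected, and of protein-coding genes 69.8%. The alpha cluster held 803, 1188 and 653 counts, the beta cluster 127, 228 and 128 and the gamma cluster 189, 321 and 189 in replicates 1, 2 and 3. By level per kb the alpha cluster held 8.16 ± 0.559%, the beta cluster 2.71 ± 0.273% and the gamma cluster 2.56 ± 0.170% of the summed member level, against 23.8 ± 2.14% for type I cadherins, 7.44 ± 0.259% for non-clustered protocadherins and 1.87 ± 0.440% for the cadherins of other structure. From 21.3% to 56.6% of the exon bases of alpha genes and from 27.6% to 64.4% of those of gamma genes also belong to another gene of the same strand. Per kb of exon in no other gene, the alpha share was 14.0 ± 0.789% and the gamma share 4.01 ± 0.271%. PCDHA8 had 3, 2 and 1 counts against 803, 1188 and 653 for the whole cluster, so reads of the shared exons were not counted in full for each gene. No source used here says how they were treated, and levels of alpha and gamma genes per kb of all exons are uncertain for that reason.

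**Figure D2:**
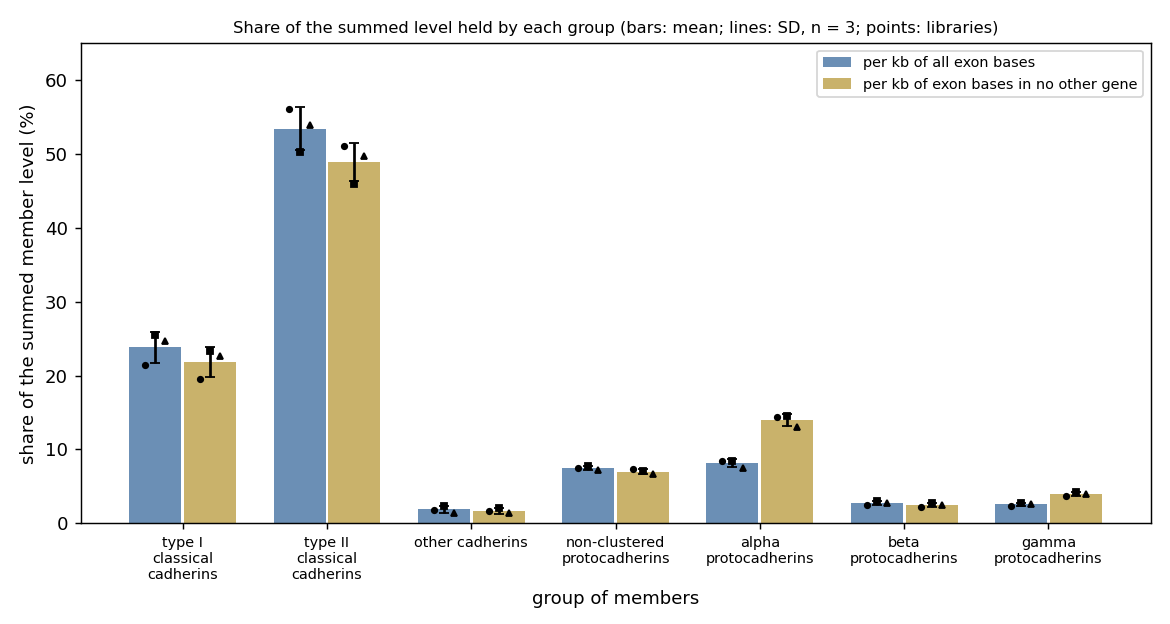
Share of the summed member level (percent, axis from 0) held by each of the 7 groups, per kb of all exon bases and per kb of exon bases in no other gene, with bars for means, lines for the SD of 3 libraries and a point for each library. Type II cadherins hold the most under both lengths, at 53.4% and 48.9%, and the alpha cluster goes to 14.0% under the second.

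In the alpha cluster 8 of 15 genes were detected, near the 53% of all genes in the table and below the 69.8% of protein-coding genes. The C-type genes at the end of the cluster took about as many counts as all 13 others together. PCDHAC2, the last gene of the cluster, had 344, 431 and 200 counts, or 2.19, 1.60 and 1.32 CPM per kb. It was the highest clustered gene in every library. PCDHAC1 had 91, 138 and 89 counts and stood at 0.509 ± 0.0384 CPM per kb, and PCDHAC2 was 4.15, 3.43 and 2.47 times as high per kb in replicates 1, 2 and 3. Per kb of exon in no other gene PCDHAC2 stood at 3.12 ± 0.815 CPM. The C-type genes held 54.2%, 47.9% and 44.3% of the alpha counts.

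The 13 alternate alpha genes were used unevenly. PCDHA11 was the highest of them in every library, with 104, 160 and 87 counts, or 0.613 ± 0.0468 CPM per kb. PCDHA2 stood at 0.408 ± 0.0669, PCDHA12 at 0.322 ± 0.0594, PCDHA3 at 0.306 ± 0.0136, PCDHA10 at 0.133 ± 0.0208 and PCDHA5 at 0.0756 ± 0.0132 CPM per kb. Libraries of these 6 genes were not distinguished beyond counting error (adjusted p from 0.138 to 0.881). Of the detected alternate genes PCDHA2 and PCDHA3 lay near the start of the row and PCDHA10, PCDHA11 and PCDHA12 near its end. Between them lay PCDHA5, the detected gene with the lowest mean, and PCDHA8, with 3, 2 and 1 counts. PCDHA1, PCDHA4, PCDHA6, PCDHA7, PCDHA9 and PCDHA13 were also not detected, with at most 24 counts in any library.

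**Figure D3:**
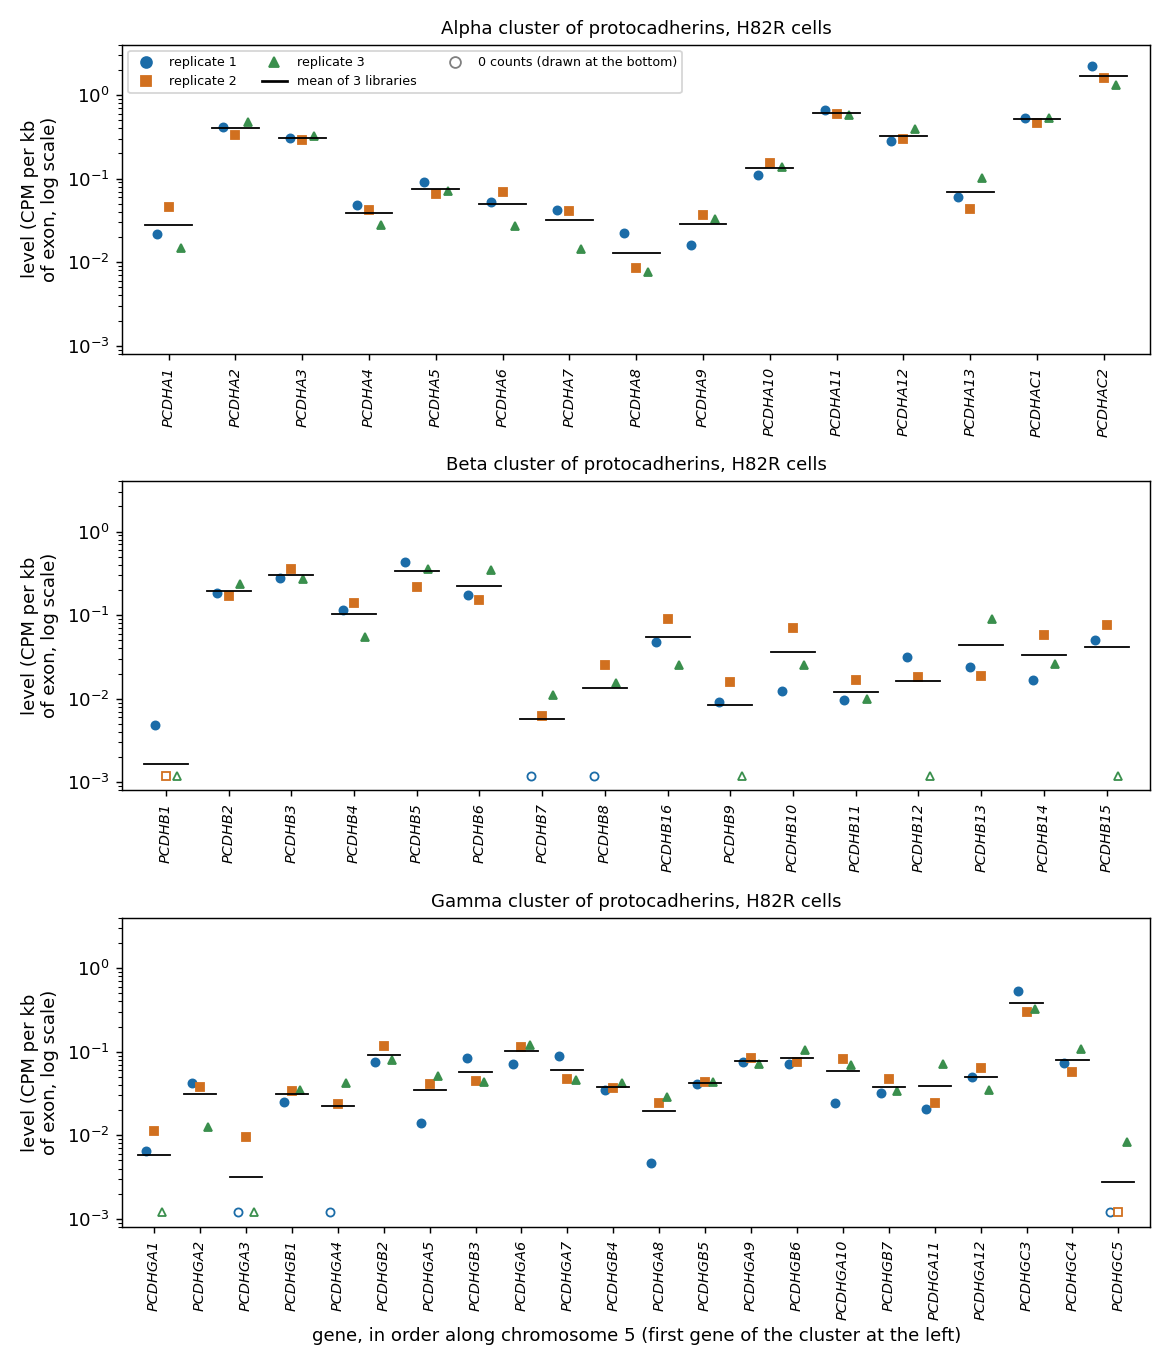
Level in CPM per kb of exon (log axis) of the 53 clustered protocadherins in their order along chromosome 5, with 1 point for each of the 3 H82R libraries, a bar for the mean and open points at the bottom for 0 counts. Within each cluster, mean levels are highest at PCDHA2, PCDHA3, PCDHA11, PCDHA12 and the C-type genes of the alpha cluster, from PCDHB2 to PCDHB6 in the beta cluster and at PCDHGC3 in the gamma cluster. PCDHB4 in that range was not detected, and all these genes stand below the median detected gene.

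In the beta cluster the detected genes were PCDHB2, PCDHB3, PCDHB5 and PCDHB6, 4 of 16, all near its start. PCDHB5 had 37, 32 and 29 counts (0.337 ± 0.110 CPM per kb), PCDHB3 23, 51 and 22 (0.302 ± 0.0467), PCDHB6 14, 21 and 27 (0.223 ± 0.106) and PCDHB2 19, 30 and 23 (0.196 ± 0.0326). Neighbours in this order overlapped between libraries, so their order cannot be given, and up to 16.3% of the exon bases of beta genes lie opposite an antisense gene. PCDHB4, which lies between PCDHB3 and PCDHB5, had 11, 23 and 5 counts and missed detection in replicate 3 alone. The other 11 beta genes, PCDHB1 and PCDHB7 to PCDHB16, had at most 19 counts in any library. PCDHB1, the first gene of the cluster, had 1, 0 and 0.

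In the gamma cluster 3 of 22 genes were detected. PCDHGC3, a C-type gene, had 72, 69 and 42 counts, or 0.534, 0.297 and 0.323 CPM per kb, and was highest in replicate 1. PCDHGA6 had 14, 38 and 23 counts (0.102 ± 0.0267 CPM per kb) and PCDHGB6 12, 22 and 17 (0.0839 ± 0.0181). The C-type genes were not alike: PCDHGC4, which in mice is needed for the survival of interneurons, had 9, 12 and 13 counts, and PCDHGC5 had 0, 0 and 1. Per kb PCDHGC3 was 7.33, 5.27 and 2.96 times as high as PCDHGC4 in replicates 1, 2 and 3. The C-type genes held 42.9%, 25.2% and 29.6% of the gamma counts. The other 17 gamma genes, which are PCDHGA1 to PCDHGA12 and PCDHGB1 to PCDHGB7 without PCDHGA6 and PCDHGB6, had at most 24 counts in any library, and 3 of them, PCDHGA1, PCDHGA3 and PCDHGA4, had a library with 0.

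Libraries differed beyond counting error for 18 of 37 detected members, that is 48.6%, against 68.7% of all detected genes (chi-square homogeneity test, adjusted over 14612 genes). The test finds smaller differences at higher counts, and most members have few. The median SD of log2 CPM was 0.33 over the detected members and 0.17 over all detected genes. These medians were not matched for counts, and counting error adds more to the SD of genes with few counts. The 5 largest spreads past the test were those of CDH11, CDH7, CDH17, PCDH12 and PCDH19. From the highest to the lowest library CDH11 differed 8.34-fold, CDH17 3.28-fold, CDH7 2.90-fold, PCDH12 2.6-fold and PCDH19 2.28-fold. CDH2, CDH22 and CDH24 passed the same test with differences of 1.09-fold, 1.13-fold and 1.15-fold.

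Which library stood apart differed between members. Of the 18 members, replicate 1 was the highest for 9, replicate 2 for 6 and replicate 3 for 3, and the lowest library was replicate 1 for 2, replicate 2 for 7 and replicate 3 for 9. Among those lowest in replicate 2, the log2 difference of that library from the mean of the other libraries was -1.50 for CDH7, -0.89 for PCDH9, -0.79 for PCDHB5, -0.64 for PCDHB6 and -0.61 for PCDH18. The 1699 detected genes with at least 10 kb of exon had a median difference of -0.02 in replicate 2, and all detected genes with a length had 0.00. The part of exon length in the values of CDH7 and PCDH9 was not tested. Without replicate 2 the homogeneity test called 10 members and without replicate 3 it called 11, on 2 libraries in place of 3. Among all genes detected in the 3 libraries, 39.1% differed between replicates 1 and 3 and 52.5% between replicates 1 and 2. The lower counts of members are therefore not a result about the members.

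**Figure D4:**
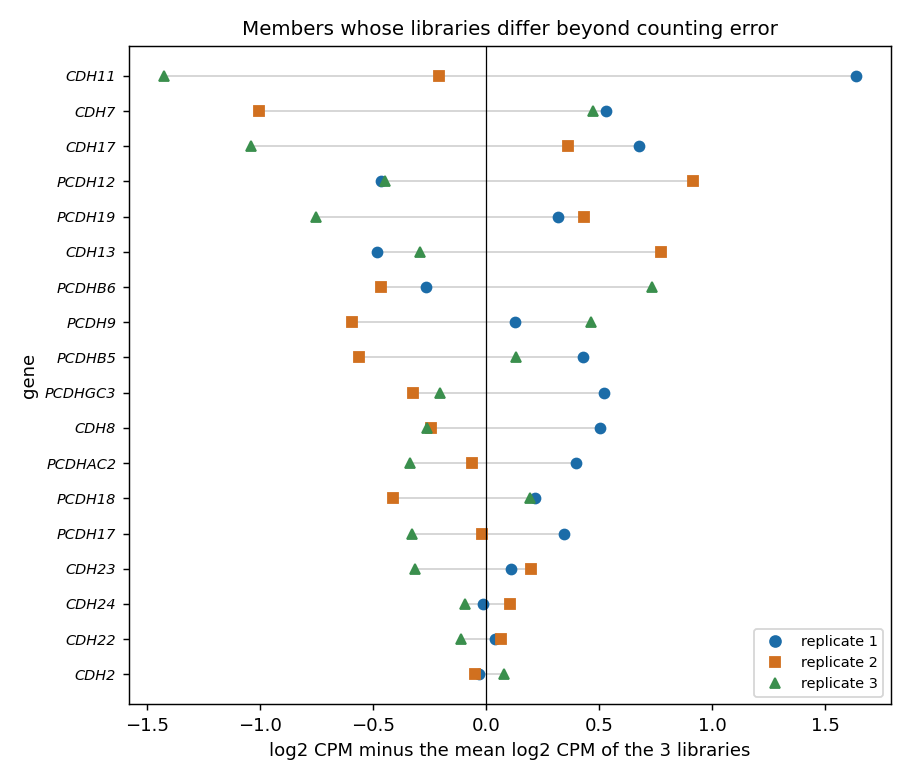
Log2 CPM of each library minus the mean of the 3 libraries, for the 18 detected members whose libraries differed beyond counting error, ordered by their SD. CDH11 spreads over the widest range, CDH7 is low in replicate 2 alone, PCDH12 is high in replicate 2 alone, and CDH2, CDH22 and CDH24 lie close to 0.

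Genes that act with cadherins were set against the same median gene. Of 10 catenins and junction linkers all were detected, and 6 stood higher than the median gene and 4 lower. CTNNB1, which encodes beta-catenin, stood at 25.7 ± 1.50, CTNNA1, which encodes alpha-catenin, at 22.6 ± 2.57 and the actin linker gene VCL at 16.9 ± 4.05 CPM per kb, and CTNNA3 was lowest at 0.103 ± 0.0248. Of all genes tested 45.3% lay above and 45% below, and the counts of this and the following lists are to be read against these shares.

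All 12 regulators of the clustered promoters were detected, 10 of them higher than the median gene and 2 not distinguished from it. The cohesin genes RAD21, SMC3 and SMC1A stood highest, at 118 ± 10.4, 67.5 ± 19.6 and 53.4 ± 1.61 CPM per kb, and STAG1 was lowest at 6.05 ± 1.35. Of 11 signalling partners of protocadherins, most of them WAVE complex genes, 8 stood higher than the median gene, 2 lower and 1 was not distinguished, against 45.3% of all genes tested above and 45% below. WASF2, BRK1 and WASF3 led at 51.4 ± 3.21, 43.6 ± 0.882 and 33.9 ± 2.36 CPM per kb, and CYFIP1 was lowest at 0.0540 ± 0.0130. Of 7 E-box repressors known to act on CDH1, 2 of the 5 detected lay above, 2 below and 1 was not distinguished, which is near the 45.3% above and 45% below of all genes tested. TCF3 stood at 44.6 ± 4.28, SNAI1 at 10.2 ± 2.27 and ZEB1 at 6.39 ± 2.35 CPM per kb, ZEB2 was the lowest detected at 1.03 ± 0.0749, and SNAI2 and TWIST1 were not detected.

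Outside the rule, other cadherin superfamily genes reached higher levels than any member. Among 18 such genes, 6 stood higher than the median gene, 5 lower and 7 were not detected. CLSTN1, which encodes a calsyntenin of neurons, stood at 56.2 ± 3.33 CPM per kb, and CDHR1, the photoreceptor cadherin gene, had 5302, 9680 and 5241 counts (28.8 ± 0.861 CPM per kb). DCHS1, a large cadherin of planar polarity, stood at 12.7 ± 1.36, and FAT2 was the lowest detected at 0.0906 ± 0.0164. Among 11 desmosome genes 5 were detected, of which 2 stood higher than the median gene and 3 lower. DSG2, a desmosomal cadherin gene, had 4127, 7438 and 3880 counts (27.0 ± 0.996 CPM per kb), with the plaque gene PKP2 at 8.75 ± 0.696, DSC2 at 1.39 ± 0.0783 and PKP3 lowest at 0.419 ± 0.181.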

How the data were processed

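RNA sequencing read counts of 3 H82R libraries were analysed as 1 group. The values are raw counts per gene symbol as deposited by the authors, 1 column per library, not normalized. The submitters' processing notes list STAR 2.6.1b and hg38 without saying what each was used for. For the counting program, the annotation, the use of strand and any filter, the answer is not given in the sources used here. Of 27587 names 13 had been turned into dates (0.0665%, 0.0707% and 0.0736% of counts) and entered neither totals nor tests. CPM used TMM effective library sizes (edgeR 4.0.16). Exon lengths, types and positions came from GENCODE release 29 on GRCh38: 19590 names matched directly, 481 by an older symbol and 7503 not at all, and all 88 members matched.

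Detection required 10 counts in every library. No contrast exists, so no test between groups was run. limma-trend (limma 3.58.1, R 4.3.3) tested log2 CPM per kb (prior count 2) minus the median over detected genes of that library, with Benjamini-Hochberg adjustment and a threshold of 0.05; a chi-square homogeneity test used the same adjustment. 92.6% of detected genes had a length. Intervals and floors cover counting error only. Members, lists and tests were chosen with earlier results of these data known. Counts were named per library for the 3 highest members per kb of each group, the C-type genes, CDH1, CDH2, CDH3, CDH5 and CDH11, and others named after their values were seen; other lists give their 3 highest and lowest detected genes. A further list of genes is not reported here. In pairs of libraries 39.1% to 53.9% of detected genes differed beyond counting error, so no library is a copy of another. The procedure was tested on simulated data. The alternatives were leaving out each library, other scalings, filters, prior counts, lengths, reference points and models.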

Additional observations from a re-analysis of the deposited data

How the results depend on the processing

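No paired analysis was possible because the labels form 1 group. Over 13 alternatives, 32 of the 37 detected members kept their direction and call wherever they were tested. With limma-voom, a prior count of 0.5, plain totals, size factors from DESeq2 1.42.0, unshared exon length or protein-coding genes alone, 2 members lay above and 33 below the median gene. Filters changed both which genes were tested and the median they were set against. With at least 1 CPM in every library 21 members were detected and 17 lay below. With any gene that had a count kept, 88 were detected, 4 above and 84 below, with CDH7 and CDH24 at log2 differences of 1.50 and 1.08. Shares of all genes under these filters are not given here, so these counts are not a result about the members. Against the upper quartile no member lay above (limma, 0 also at an unadjusted p under 0.05; 21.6% of all genes did), and the log2 differences of CDH2, CDH22, CDH24 and CDH7 were -0.0906, -0.26, -1.10 and -0.68. Against the median gene the log2 difference of CDH24 was -0.0484 with the 1 CPM filter and -0.12 on CPM not per kb, and that of PCDH9 was 0.22 on CPM. Exon length is what the last scale leaves out, and the other causes were not tested. Leaving out 1 library at a time, the homogeneity test called 10 to 14 members, and at a threshold of 0.01 it called 11. Among all genes detected in the 3 libraries, 39.1% to 53.9% differed between 2 libraries. The share of all genes at the threshold of 0.01 is not given here. Per kb of unshared exon the shares of the alpha and gamma clusters, the non-clustered protocadherins and the type II cadherins were 14.0%, 4.01%, 7.01% and 48.9%. The ratio of CDH2 to CDH1 ranged from 154 to 289 without 1 library (geometric mean 207). Members under 10 counts have no usable order at these depths.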
